A study of Homo sapiens with 22 samples.

Results

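The comparison set 2 pools of BJ cells taken at day 3 of reprogramming against 2 pools taken at day 0, over every gene that enough cells expressed. All cells with at least 1000 detected genes and at most 10% of their UMIs (unique molecular identifiers, which count captured RNA molecules) on mitochondrial genes were kept, and their UMIs were added up per pool. This kept 10776 cells of day 0 (D0) and 6660 cells of day 3 (D3), 17436 of the 41975 kept cells of a series that runs over 8 sampling days with 2 pools, A and B, on each day. BJ is an established line of human newborn foreskin fibroblasts, here grown on fibronectin in microfluidic chips. Cells of D0 were controls harvested before the first transfection, from a culture in serum-containing DMEM. Cells of D3 had received nightly transfections, from day 1 on, of mRNAs for POU5F1, SOX2, KLF4, MYC, LIN28 and NANOG, in supplemented Pluriton medium. The procedure ran in a low-oxygen incubator, and the sources used do not say how long cells of D0 had spent at low oxygen. Medium, serum, transfection and time on the chip changed together between the days, and their shares in any difference, and that of a change in oxygen if there was one, cannot be told apart. Each pool held cells of 4 chips that were merged and frozen, and the sources used do not say that the chips of A and B were seeded from separate cultures, so p-values measure the spread between such pools.

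A fibroblast is a connective tissue cell that makes collagen and other matrix, pulls on its surroundings through actin and myosin, and keeps a set of mesenchymal transcription factors switched on. Reprogramming factors first have to loosen this state, and MYC in particular is known for driving ribosome production and cell growth. Cells can also sense RNA that enters from outside and answer with interferon-stimulated genes. A summed pool gives the average over its cells, so fewer cells of a type and less RNA per cell cannot be told apart.

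The pools summed 93878211 to 166611709 UMIs, with a median of 23717 to 46201 UMIs per kept cell, the highest in D3 A. Levels are given as CPM, the UMIs of a gene scaled to a common total for every pool, always listed as pool A and then pool B. All 15 fibroblast markers were measured on both days, but most stood lower on D3: 8 were called lower and 7 were not called, 13 had a negative log2 fold change and 2 a positive one, and the median was -1.18. Their summed level was 21365 and 21859.8 CPM on D0 and 13397 and 11185 CPM on D3. LUM, a collagen-binding proteoglycan, stood at 1015 and 894 CPM on D0 and 345 and 161 CPM on D3 and was among those lower (-1.97, lost without D0 A or D3 B). DCN, another, was lower at 452 and 465 CPM on D0 and 171 and 102 CPM on D3 (-1.80, lost without D0 A, D0 B or D3 B). S100A4, a calcium-binding protein, was lower at 6587 and 6193 CPM on D0 and 2706 and 2628 CPM on D3 (-1.30). THY1, a surface marker of fibroblasts, stood at 502 and 468 CPM on D0 and 554 and 616 CPM on D3. VIM, the mesenchymal intermediate filament, stood at 10022 and 10736 CPM on D0 and 7857 and 5874 CPM on D3. COL3A1, a fibrillar collagen, stood at 307 and 349 CPM on D0 and 464 and 400.4 CPM on D3. THY1 and COL3A1, the 2 markers with a positive log2 fold change, were above D0 in both D3 pools and VIM was below it, and none of these 3 was called. Most markers of other skin and blood cells were at or near 0 in all 4 pools: KRT5, KRT1, TP63 and CD3E had no UMI, PTPRC lay between 0.576 and 0.84 CPM and PECAM1 between 0.205 and 0.482 CPM. A few were not. The 8 keratinocyte markers summed to 297 and 309 CPM on D0 and 283 and 282 CPM on D3, nearly all of it from KRT10, a keratin of differentiating epidermis, at 293 and 304 CPM on D0 and 277 and 277 CPM on D3, which was not called, while SFN, an epithelial 14-3-3 protein, was higher on D3 (1.57, lost without D0 A, D0 B, D3 A or D3 B). The 8 immune markers summed to 90.5 and 89.2 CPM on D0 and 40.6 and 28.8 CPM on D3, nearly all of it from CD68, a lysosomal protein of macrophages, at 88.2 and 87.3 CPM on D0 and 37.9 and 26.7 CPM on D3, under D0 in both D3 pools but not called (adjusted p = 0.011, edgeR). The 7 melanocyte markers summed to 12.3 and 12.9 CPM on D0 and 2.95 and 2.38 CPM on D3, mostly from MITF, which melanocytes and fibroblasts both use and which was lower (-2.45). The 7 endothelial markers summed to 1.87 and 2.18 CPM on D0 and 0.778 and 0.662 CPM on D3, and the 6 of pericytes and smooth muscle to 25.7 and 28 CPM on D0 and 43.1 and 36.6 CPM on D3, with 0 called. The part of these markers in the results was not tested.

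The pools of D0 were close to each other and those of D3 were not. Among 5471 genes at 10 CPM or more in all 4 pools, 0 differed 2-fold or more between D0 A and D0 B, against 562 between D3 A and D3 B. The median absolute log2 ratio of the pools was 0.05 on D0 and 0.42 on D3, and that between the means of the days was 0.48. For a typical gene, the difference between the days was therefore about as large as that between the pools of D3. D3 B stood above D3 A most for NME2, at 6.97 against 179 CPM, MT-ATP8, at 5.38 against 81.7 CPM, and MIF, at 206 against 1095 CPM, and none of these was called between the days. D3 B also had the higher median share of mitochondrial UMIs, 4.41% against 2.67% in D3 A and 2.96% and 3.33% on D0.

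**Figure D1:**
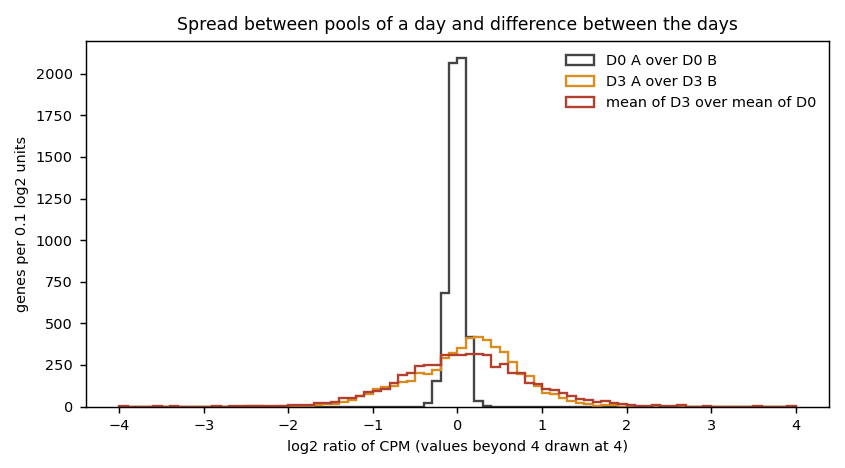
Number of genes (y axis) by log2 ratio of CPM (x axis) over the genes at 10 CPM or more in all 4 pools, for D0 A over D0 B, D3 A over D3 B, and the mean of D3 over the mean of D0. The D0 ratios form a narrow peak at 0, while those between the D3 pools spread almost as widely as those between the days, with medians of the absolute ratio of 0.05, 0.42 and 0.48.

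Of 12794 genes tested, 1671 were called higher on D3 (13.1%) and 1609 lower (12.6%). Calls were made with edgeR's quasi-likelihood test at an absolute log2 fold change over 0.25 and a Benjamini-Hochberg adjusted p under 0.01. These shares are the background against which each gene list is read, together with the median log2 fold change of all genes tested, -0.06. Among the genes tested, more steep changes were rises: 381 genes rose and 197 fell by 4-fold or more, and 137 rose and 26 fell by 8-fold or more. These counts have no limit on level. The filter took in cells of all 8 days, so it kept genes nearly absent on D0, such as LIN28A at 0.012 and 0 CPM. Falls were the bulkier changes: the genes called lower held 187997 and 184104 CPM on D0 and 74378 and 84088 CPM on D3, while those called higher went from 49829.7 and 49547 CPM to 131798 and 118469 CPM. Both D3 pools lay above both D0 pools in 4227 of the 12794 genes tested and below them in 4819. All 3280 called genes were among these, so pools that lie apart do not set the called genes off from most others. These calls borrow the spread of all 16 pools: fitted alone, the 4 pools gave 0 calls with edgeR (5431 genes at an unadjusted p below 0.05) and 3227 with DESeq2, and without D0 A or D0 B edgeR called 1499 and 1444. Of 220 called genes that the naming rule picked, 120 had an adjusted p below 0.0005 and all of these stayed called with each of the 4 pools left out in turn, while 83 of the others did not. Fits with a pool left out share most pools with the fit of all 16, so the smallest p were likeliest to stay called. The cut of 0.0005 lies close under the p of named genes that lost a call and is a description. In what follows, brackets after a level hold the log2 fold change of D3 over D0, "lost without" names the pools whose removal ended the call, and counts with each pool left out run in the order D0 A, D0 B, D3 A and D3 B. Each of those fits called fewer genes over all genes tested, both higher and lower, than the fit of all pools. List counts from them are therefore not to be read against 13.1% and 12.6%.

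**Figure D2:**
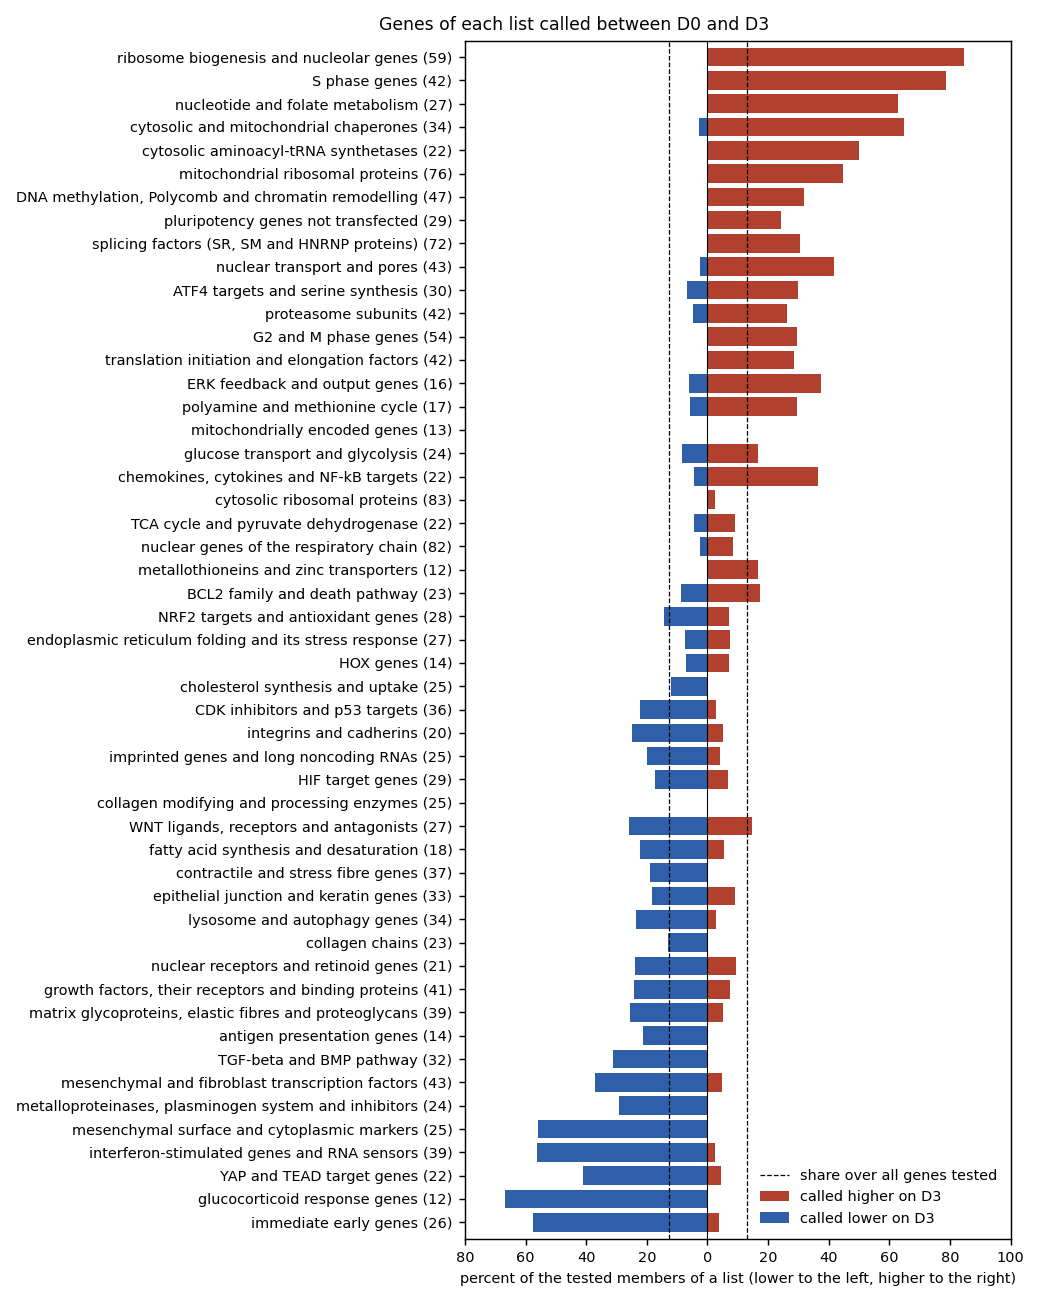
Percent of the tested members of 51 gene lists (number tested in brackets) that were called higher on D3 (bars to the right) or lower (bars to the left), ordered by the median log2 fold change, with dashed lines at the shares over all genes tested. Ribosome biogenesis, with 50 of 59 members higher, stands at the top, and the immediate early genes, with 15 of 26 lower, at the bottom.

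The 12 largest rises among well expressed genes included genes of the nucleolus and of mitochondria. AES was also among them and is given below with the transfected factors, where the source of its RNA is taken up. NOP16, a nucleolar protein of 60S ribosome assembly, stood at 12.7 and 13.1 CPM on D0 and 177 and 132 CPM on D3 (log2 fold change 3.54 ± 0.21, SE; edgeR adjusted p = 7.1e-07). Both D3 pools were far above both D0 pools, which barely differed. TOMM40, the channel through which proteins enter mitochondria, stood at 27.8 and 28.8 CPM on D0 and 259 and 175 CPM on D3 (2.90). PPIF, the cyclophilin of the mitochondrial matrix, stood at 12.5 and 13.4 CPM on D0 and 117 and 79.2 CPM on D3 (2.88). GRWD1, a ribosome assembly and histone-binding protein, CENPV, a centromere protein, and POLR3K, a subunit of RNA polymerase III, rose by 2.90, 2.85 and 2.65 on the log2 scale. RP11-395G23.3, a noncoding RNA, stood at 7.06 and 7.25 CPM on D0 and 76.5 and 85 CPM on D3 (3.47).

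**Figure D3:**
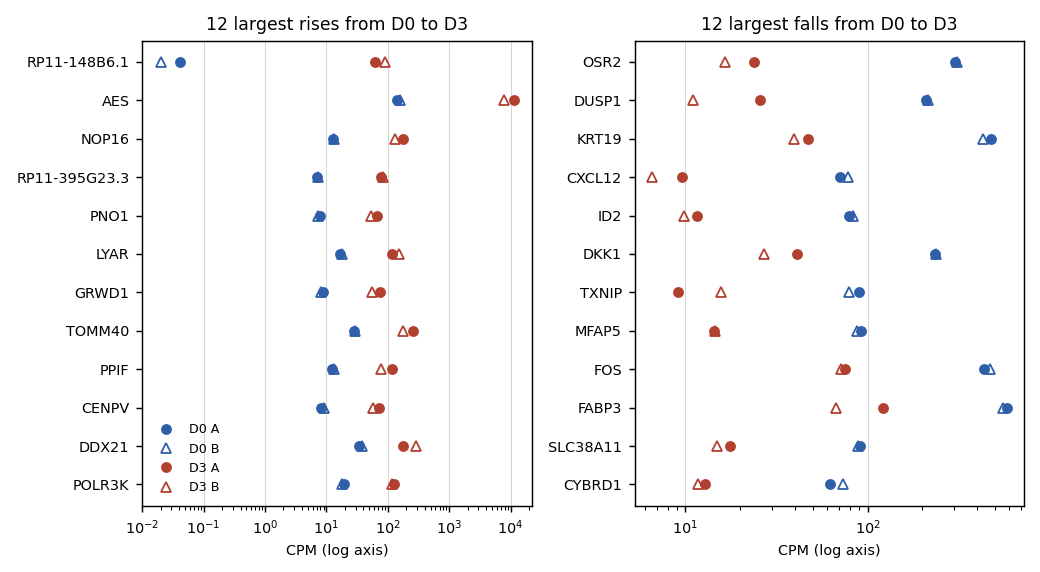
Level in CPM (log axis) of the 12 genes with the largest rise and the 12 with the largest fall among those at 50 CPM or more in both pools of the higher day, in D0 A, D0 B, D3 A and D3 B. In each gene the red D3 symbols lie apart from the blue D0 symbols, as for NOP16 at 12.7 and 13.1 CPM on D0 and 177 and 132 CPM on D3.

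The 12 largest falls included a chemokine, a keratin and carriers of small molecules. CXCL12, the chemokine that fibroblasts secrete to hold CXCR4-bearing cells, stood at 70.6 and 77.8 CPM on D0 and 9.58 and 6.57 CPM on D3 (-3.24 ± 0.20, SE; edgeR adjusted p = 9.1e-07). KRT19, a keratin that these fibroblasts carried on D0, stood at 479 and 432 CPM on D0 and 46.9 and 39.6 CPM on D3 (-3.44). The D3 pools of both genes were close to each other and far under those of D0. TXNIP, an arrestin-like protein that rises with glucose and restrains its uptake, fell by 2.78, FABP3, a carrier of fatty acids, fell by 2.63, CYBRD1, an iron reductase, fell by 2.50, and SLC38A11, an amino acid transporter family member, fell by 2.51 on the log2 scale.

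Ribosome biogenesis, the making of rRNA and its assembly with proteins in the nucleolus, was the list with the largest share of calls. Of 59 tested members 50 were higher on D3 and 0 lower, all 59 had a positive log2 fold change, and the median was 1.78. The summed level of the list was 2942 and 2900.4 CPM on D0 and 7746 and 7986 CPM on D3, so the D3 pools nearly coincided. Among members, PNO1, an assembly factor of the small subunit, stood at 7.86 and 7.35 CPM on D0 and 67.9 and 54.3 CPM on D3 (2.97). LYAR, a nucleolar growth regulator, stood at 16.6 and 18.2 CPM on D0 and 116 and 153 CPM on D3 (2.92). DDX21, an RNA helicase of rRNA transcription, stood at 34.6 and 37.8 CPM on D0 and 179 and 284 CPM on D3 (2.66). The box C/D core proteins NOP56 and FBL, which methylate rRNA, rose by 2.14 and 1.48, and POLR1B, a large subunit of RNA polymerase I, rose by 2.17. The abundant shuttling proteins NCL and NPM1 were less even between the D3 pools. NCL, which binds nascent rRNA, stood at 326 and 298 CPM on D0 and 617 and 1560.1 CPM on D3 (1.79, lost without D0 A, D0 B or D3 B). NPM1, a chaperone of ribosomal proteins, stood at 943 and 934 CPM on D0 and 2258 and 1446 CPM on D3 (0.94, lost without D0 A, D0 B or D3 A). In both genes each D3 pool was above both D0 pools. Without D0 A, D0 B, D3 A or D3 B, 41, 37, 49 and 49 members were higher.

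The promoters of this list are shown because MYC, one of the transfected factors, is known to bind the E-box CACGTG. RefSeq windows (GRCh38.p14) from 250 bases before to 50 bases after the first listed start of a gene were matched by symbol for 10104 of 12793 gene symbols tested. The E-box was read in its letters on both strands, which are the same, and it contains the hypoxia element core ACGTG. It was in 39.2% of 51 ribosome biogenesis windows, against 10.3% of the 10104 windows of all genes tested and 7.26% of all 35116 windows of the table. A high share was not limited to lists with rises: the E-box was in 34.8% of 23 windows of lysosome and autophagy genes, a list with 8 genes lower and 1 higher, and in 21.1% of 19 of cholesterol genes, with 3 lower. Nor did all lists with many rises have one: it was in 9.68% of 31 windows of S phase genes, 10.0% of 30 of chaperones and 8.82% of 68 of mitochondrial ribosomal proteins. The part of MYC in these changes was not tested. These are the windows of 4 members with an E-box that were called higher. They run 5′ to 3′ on the strand of the gene, with the E-box in capitals. The 4 were ranked by rise within a part of the called members, so members left out may have risen more.
PNO1 (chr2:68157638-68157937, plus strand): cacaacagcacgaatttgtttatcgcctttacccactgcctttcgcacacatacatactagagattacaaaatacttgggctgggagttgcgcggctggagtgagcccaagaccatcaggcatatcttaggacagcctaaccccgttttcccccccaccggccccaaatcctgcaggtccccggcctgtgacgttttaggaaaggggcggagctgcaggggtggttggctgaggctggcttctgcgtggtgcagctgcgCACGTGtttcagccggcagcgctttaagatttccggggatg
RRP9 (chr3:51941855-51942154, minus strand): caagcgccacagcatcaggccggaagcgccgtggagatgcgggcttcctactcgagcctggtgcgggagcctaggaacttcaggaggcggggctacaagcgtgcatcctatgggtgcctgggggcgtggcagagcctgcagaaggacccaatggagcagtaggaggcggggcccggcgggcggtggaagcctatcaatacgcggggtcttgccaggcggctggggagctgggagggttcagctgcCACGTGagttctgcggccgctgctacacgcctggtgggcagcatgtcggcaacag
MRTO4 (chr1:19251555-19251854, plus strand): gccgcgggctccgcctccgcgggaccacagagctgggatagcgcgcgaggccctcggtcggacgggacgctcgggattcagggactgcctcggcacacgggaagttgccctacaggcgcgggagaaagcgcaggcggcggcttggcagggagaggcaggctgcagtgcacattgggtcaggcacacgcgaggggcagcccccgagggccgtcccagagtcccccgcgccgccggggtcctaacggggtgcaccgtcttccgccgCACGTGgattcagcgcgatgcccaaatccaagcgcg
BYSL (chr6:41921249-41921548, plus strand): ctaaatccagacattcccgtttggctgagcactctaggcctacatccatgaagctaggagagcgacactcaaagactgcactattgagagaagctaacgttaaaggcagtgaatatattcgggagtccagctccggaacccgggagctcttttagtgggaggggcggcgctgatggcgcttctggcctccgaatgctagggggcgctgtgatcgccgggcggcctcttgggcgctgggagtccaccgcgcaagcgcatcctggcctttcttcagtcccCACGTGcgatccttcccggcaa
In PNO1, MRTO4 and BYSL the E-box began 9, 14 and 28 bases after the start of transcription, and in RRP9, a U3 snoRNP protein, 5 bases before it. RRP9 stood at 8.13 and 7.17 CPM on D0 and 61.9 and 43.3 CPM on D3 (2.74). MRTO4, a placeholder in 60S assembly, stood at 22.5 and 21.1 CPM on D0 and 141 and 131 CPM on D3 (2.61). BYSL, a processing factor of the small subunit, stood at 6.69 and 6.74 CPM on D0 and 44 and 32.6 CPM on D3 (2.47). In all 3 genes both D3 pools were several times above those of D0.

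Genes for the ribosome's own proteins gave few calls. Of 83 tested genes of cytosolic ribosomal proteins 2 were higher on D3, the paralogs RPL39L (1.56) and RPL7L1 (1.20, lost without D0 A, D0 B or D3 B), and 0 were lower, with a median log2 fold change of 0.20. Reads of such paralogs can be split with near-identical copies, so their levels are uncertain. The list as a whole took 256320 and 256234 CPM on D0 and 286057 and 311739 CPM on D3. Mitochondrial ribosomal proteins gave more: 34 of 76 were higher, 0 lower and the median was 0.71, with MRPS26 at 49.5 and 51.6 CPM on D0 and 186 and 187 CPM on D3 (1.85 ± 0.17, SE; edgeR adjusted p = 1.2e-05), MRPS2 (1.82) and MRPL12 (1.69) among those higher. Of 42 translation factors 12 were higher, among them EIF4EBP1, the brake on cap-dependent initiation, at 83.9 and 86 CPM on D0 and 324 and 279.9 CPM on D3 (1.79), EEF1E1 (1.70) and the cap-binding protein EIF4E (1.03, lost without D0 A, D0 B or D3 A). Of 22 genes for cytosolic aminoacyl-tRNA synthetases and their scaffold 11 were higher and 0 lower, with a median of 0.91; AIMP2, the scaffold, rose by 2.30, FARSA by 1.95 and YARS by 1.76. Without D0 A, D0 B, D3 A or D3 B, 17, 13, 23 and 28 mitochondrial ribosomal proteins, 6, 3, 11 and 9 translation factors and 4, 4, 11 and 11 synthetase genes were higher.

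In nucleotide and folate metabolism 17 of 27 tested genes were higher and 0 lower, with a median of 1.10. DHODH, the mitochondrial step of pyrimidine synthesis, stood at 3.15 and 3.02 CPM on D0 and 21.1 and 18 CPM on D3 (2.63 ± 0.22, SE; edgeR adjusted p = 5.3e-06). PPAT, the committed step of purine synthesis, stood at 4.14 and 3.78 CPM on D0 and 16.4 and 21.1 CPM on D3 (2.22). In both genes the 4 pools formed a low D0 pair and a high D3 pair. CTPS1, which makes CTP, was less even on D3, at 5.54 and 5.45 CPM on D0 and 42.7 and 18.6 CPM on D3 (2.42). IMPDH2, the guanine branch enzyme, stood at 136 and 135 CPM on D0 and 307 and 148 CPM on D3 and was not called. The E-box was in 29.2% of 24 windows of this list. In the polyamine and methionine cycle list, 5 of 17 genes were higher: SRM, spermidine synthase, stood at 134 and 138 CPM on D0 and 557 and 459.5 CPM on D3 (1.86 ± 0.18, SE; edgeR adjusted p = 1.4e-05), whereas SAT1, which acetylates polyamines for breakdown, was lower at 175 and 171 CPM on D0 and 79.9 and 87.4 CPM on D3 (-1.08). ODC1, which starts polyamine synthesis, stood at 33 and 38.3 CPM on D0 and 166 and 57.7 CPM on D3; its D3 pools differed by more than 2-fold and it was not called (adjusted p = 0.013, edgeR).

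Amino acid supply showed some of the steepest rises. SLC7A5, the importer of leucine and other large amino acids, stood at 0.804 and 0.815 CPM on D0 and 24.6 and 16.6 CPM on D3 (4.62 ± 0.31, SE; edgeR adjusted p = 1.6e-06). SLC3A2, its heavy chain, stood at 25.1 and 22 CPM on D0 and 174 and 90.3 CPM on D3 (2.43, lost without D0 B). SLC7A11, the cystine importer, stood at 4.98 and 5.56 CPM on D0 and 24.7 and 36.1 CPM on D3 (2.51). PSAT1, in serine synthesis, stood at 8.44 and 8.89 CPM on D0 and 79.2 and 26.6 CPM on D3 (2.55). All D3 pools were above all D0 pools in these genes, and PSAT1 was far higher in D3 A than in D3 B. These genes belong to the list of targets of ATF4, the transcription factor of the amino acid response, where 9 of 30 were higher and 2 lower with a median of 0.61. ATF4 itself stood at 158 and 173 CPM on D0 and 271 and 245 CPM on D3. PHGDH, the entry to serine synthesis, stood at 67 and 63.8 CPM on D0 and 120.3 and 69.4 CPM on D3. DDIT3 stood at 12.3 and 12 CPM on D0 and 14.8 and 16.5 CPM on D3, and none of the 3 was called. The members lower on D3 were the stress genes NUPR1 (-1.24, lost without D0 A, D0 B, D3 A or D3 B) and PPP1R15A (-1.17, lost without D0 A, D0 B or D3 A). When each pool was left out, 11, 11, 12 and 17 genes of nucleotide metabolism, 2, 1, 3 and 6 of the polyamine list and 5, 4, 7 and 11 ATF4 targets were higher.

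Of 34 tested chaperones of the cytosol and of mitochondria 22 were higher, 1 was lower and 11 were not called, with a median of 1.10. HSPD1, the mitochondrial chaperonin, stood at 163 and 153 CPM on D0 and 626 and 691 CPM on D3 (2.03 ± 0.20, SE; edgeR adjusted p = 2e-05). FKBP4, a co-chaperone of HSP90, stood at 25.3 and 25 CPM on D0 and 125 and 75.8 CPM on D3 (1.95). The cytosolic chaperonin was represented by CCT2 (1.31), CCT3 (0.93, lost without D0 A, D0 B or D3 A), CCT6A (1.49), CCT7 (1.17, lost without D0 A, D0 B or D3 A), TCP1 (1.27, lost without D0 A, D0 B or D3 A) and CCT5, at 106 and 100.2 CPM on D0 and 357 and 234 CPM on D3 (1.48, lost without D0 B). The member lower on D3 was CRYAB, a small heat shock protein of muscle and lens, at 177 and 181 CPM on D0 and 60.3 and 51.5 CPM on D3 (-1.71). Chaperones of the endoplasmic reticulum gave a mixed picture: of 27 genes 2 were higher, SDF2L1 (2.00) and HYOU1 (1.64), and 2 lower, the secretory regulators CREB3L1 (-1.39, lost without D0 A, D0 B or D3 B) and CREB3L2 (-0.99, lost without D0 A, D0 B or D3 A), with a median of -0.03. HSPA5, the main chaperone there, stood at 178 and 151 CPM on D0 and 396 and 204 CPM on D3 and was not called. Of 42 proteasome genes 11 were higher, among them the activator PSME3 (1.42) and the receptor ADRM1 (1.27), and 2 lower, the interferon-inducible PSMB9 (-1.61, lost without D0 A, D0 B, D3 A or D3 B) and PSME1 (-0.91, lost without D0 A). Without each pool in turn, 12, 8, 17 and 21 chaperones and 2, 2, 6 and 4 proteasome genes were higher.

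Genes of DNA replication gave more calls than those of mitosis. Of 42 S phase genes 33 were higher and 0 lower, all had a positive log2 fold change, and the median was 1.68. CDCA7, a chromatin protein of replicating cells, stood at 1.69 and 1.92 CPM on D0 and 22.8 and 21.2 CPM on D3 (3.57 ± 0.27, SE; edgeR adjusted p = 2.4e-06). DTL, which clears licensing factors, stood at 1.69 and 1.57 CPM on D0 and 12.1 and 13.5 CPM on D3 (2.94). CCNE2, the cyclin of S phase entry, stood at 0.426 and 0.489 CPM on D0 and 5.73 and 4.69 CPM on D3 (3.47). In each of these both D3 pools were far above those of D0 and much closer to each other than to D0. PCNA, the sliding clamp, was not called, at 69.6 and 71.4 CPM on D0 and 139.8 and 105 CPM on D3 (adjusted p = 0.012, edgeR). Of 54 G2 and M phase genes 16 were higher and 0 lower with a median of 0.55, among them the Aurora kinases AURKB (1.99) and AURKA (1.27, lost without D0 A, D0 B or D3 B). TOP2A, a topoisomerase of dividing cells, stood at 69.1 and 65.3 CPM on D0 and 49.4 and 105 CPM on D3. MKI67, the Ki-67 antigen, stood at 61.3 and 62.8 CPM on D0 and 63.3 and 109 CPM on D3. D3 A was below both D0 pools for TOP2A and close to them for MKI67, and neither was called. With each pool left out, 21, 22, 30 and 28 S phase and 4, 3, 9 and 15 G2 and M phase genes were higher.

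A larger share of D3 cells than of D0 cells carried RNA of the cycle. After each cell was thinned to 5000 UMIs, which all kept cells of these pools reached, 58.7% and 60.3% of D0 cells and 80.4% and 85.7% of D3 cells had a UMI of at least 1 of 10 core cycle genes (unthinned, 91.6% and 94% on D0 and 98.8% and 99.4% on D3). The other cells had no such UMI after thinning and are named cells without cycle UMIs in what follows. Unthinned, most of them did hold such a UMI in each of the 4 pools. The name therefore does not mean that they were out of the cycle. They numbered 2534 and 1838 on D0 and 369 and 682 on D3. Between their sums at full depth edgeR called 676 of 11967 genes, 344 higher and 332 lower. Counts in these cells, here and below, are to be read against those numbers, not against the shares called over all cells. Higher were 23 of 59 ribosome biogenesis genes (median 1.15), 7 of 76 mitochondrial ribosomal proteins (median 0.50) and 4 of 34 chaperones (median 0.77). So were 4 of 27 genes of nucleotide metabolism (median 0.60), 5 of 37 S phase genes (median 1.08) and 4 of 22 synthetase genes (median 0.66). All had fewer cells behind them. Other lists had 1 of 42 translation factors (median 0.41), 1 of 42 proteasome genes (median 0.62) and 2 of 70 splicing factors (median 0.38) higher. Also higher were 1 of 42 genes of nuclear transport (median 0.31) and 1 of 49 G2 and M phase genes (median 0.82). So were 3 of 45 chromatin genes (median 0.41) and 1 of 17 of the polyamine list. NOP16, with a UMI in 5.49% and 6.62% of thinned D0 cells, had one in 42.6% and 39.4% of D3 cells, beside 0.472%, 0.496%, 0.425% and 0.209% for the leukocyte gene PTPRC, which fibroblasts should lack. Unthinned, NOP16 was in 25.2% and 29% on D0 and 88.6% and 82.6% on D3 and PTPRC in 2.05% and 1.96% on D0 and 2.18% and 1.55% on D3. Among inhibitors of the cycle and targets of p53, 8 of 36 were lower and 1 higher (TRIAP1, 1.63). CDKN1C, an imprinted CDK inhibitor, stood at 15.5 and 16.1 CPM on D0 and 5 and 4.7 CPM on D3 (-1.74 ± 0.30, SE; edgeR adjusted p = 0.00072). CCNG2, a cyclin of resting cells, stood at 25 and 27.2 CPM on D0 and 9.93 and 4.25 CPM on D3 (-1.94, lost without D0 A, D0 B or D3 B). CDKN1A, the p21 inhibitor, stood at 328 and 341 CPM on D0 and 192 and 146 CPM on D3, under D0 in both D3 pools but not called (adjusted p = 0.041, edgeR). CDKN2A, which encodes p16, stood at 83.8 and 86.9 CPM on D0 and 110.3 and 60.8 CPM on D3, with the D0 pools between those of D3. When each pool was left out, 2, 2, 5 and 5 members of this list were lower, and 3 in cells without cycle UMIs.

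Of 72 splicing factors 22 were higher and 0 lower with a median of 0.65, among them HNRNPAB at 51.1 and 51.4 CPM on D0 and 169.6 and 359.6 CPM on D3 (2.36). SNRPB, a core protein of spliceosomal snRNPs, stood at 174 and 174 CPM on D0 and 712 and 602 CPM on D3 (1.88), and SNRPD1, another, rose by 1.77. Of 43 genes of nuclear pores and transport 18 were higher, among them XPO5, the exporter of microRNA precursors, at 2.27 and 2.26 CPM on D0 and 10.1 and 11.8 CPM on D3 (2.24), and RCC1, the exchange factor of Ran (1.97). RAN itself stood at 576 and 562 CPM on D0 and 1370.2 and 1251 CPM on D3 (1.17). The importin TNPO1 was lower (-0.76, lost without D0 A, D0 B or D3 A). Of 47 genes of DNA methylation, Polycomb and remodelling 15 were higher and 0 lower with a median of 0.70. CHD7, a remodeller of neural crest and stem cells, stood at 0.36 and 0.36 CPM on D0 and 8.43 and 10.5 CPM on D3 (4.69 ± 0.28, SE; edgeR adjusted p = 7.1e-07), with both D3 pools far above those of D0. CHAF1A, a histone chaperone at the replication fork, rose by 2.18, WDR5, a subunit of H3K4 methyltransferases, by 1.76, EZH2, the Polycomb methyltransferase, by 1.37 (lost without D0 A, D0 B or D3 B) and DNMT1, the maintenance DNA methyltransferase, by 1.01 (lost without D0 A, D0 B or D3 B). TET1 stood at 19.3 and 18.7 CPM on D0 and 11.6 and 21.4 CPM on D3, with D0 between the D3 pools. Without each pool in turn, 8, 8, 17 and 21 splicing factors, 7, 7, 16 and 11 transport genes and 5, 5, 14 and 10 chromatin genes were higher.

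Lists of energy metabolism gave shares of calls nearer to those over all genes tested. In glucose transport and glycolysis 4 of 24 genes were higher and 2 lower (median 0.27). HK2, the inducible hexokinase, stood at 1.26 and 1.66 CPM on D0 and 6.09 and 7.61 CPM on D3 (2.21). SLC16A1, the lactate carrier, stood at 18.1 and 17.3 CPM on D0 and 45 and 53.2 CPM on D3 (1.44). SLC2A3, a glucose carrier, stood at 52.2 and 55 CPM on D0 and 11.5 and 16.8 CPM on D3 (-1.94 ± 0.19, SE; edgeR adjusted p = 1.9e-05). HK2 and SLC16A1 were thus higher in both D3 pools and SLC2A3 lower in both. LDHA, which makes lactate, stood at 1002 and 952 CPM on D0 and 1968 and 1120.3 CPM on D3 and was not called. Targets of HIF, the hypoxia factor, were split, with the time of D0 at low oxygen not known: 5 of 29 were lower, among them BNIP3L at 138 and 135 CPM on D0 and 55.7 and 58 CPM on D3 (-1.30), CA12 (-1.41) and NDRG1 (-1.23, lost without D0 A, D0 B, D3 A or D3 B), and 2 higher, AK4 at 4.16 and 4.75 CPM on D0 and 22.6 and 20 CPM on D3 (2.22) and ANKRD37 (1.62), with a median of -0.43. VEGFA stood at 8.96 and 9.71 CPM on D0 and 3.87 and 8.27 CPM on D3 and was not called. Of 82 nuclear genes of the respiratory chain 7 were higher and 2 lower (median 0.12), with cytochrome c, CYCS, at 103 and 104 CPM on D0 and 571 and 464 CPM on D3 (2.28 ± 0.15, SE; edgeR adjusted p = 1.3e-06). None of 13 mitochondrially encoded genes was called (4 had an unadjusted p below 0.05 by edgeR, 3 were higher without the filter on genes, 1 at an adjusted p under 0.05, 0 by DESeq2 and 1 by DESeq2 on the 4 pools), and their summed level was 30896 and 34158 CPM on D0 and 29326 and 47555 CPM on D3, with D3 A below and D3 B above D0. In the TCA cycle 2 of 22 genes were higher and 1 lower. With each pool left out, 2, 2, 2 and 3 genes of glycolysis, 3, 1, 4 and 8 nuclear genes of the respiratory chain and 0, 0, 1 and 3 of the TCA cycle were higher, and 3, 3, 4 and 4 HIF targets lower, and in cells without cycle UMIs 1, 2 and 0 were higher and 0 lower.

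Lists of lipid and lysosomal genes had medians below 0. STARD4, a sterol carrier, stood at 39.2 and 40.1 CPM on D0 and 15.8 and 12.5 CPM on D3 (-1.53 ± 0.18, SE; edgeR adjusted p = 4.9e-05). LSS, lanosterol synthase, stood at 119 and 131 CPM on D0 and 53.3 and 46.8 CPM on D3 (-1.36). They were among 3 genes lower, and 0 higher, of 25 in cholesterol synthesis and uptake (median -0.39). This share, 12%, was near the 12.6% lower over all genes tested. Fatty acid carriers moved in opposite directions: FABP5 stood at 79.2 and 81.1 CPM on D0 and 417 and 387 CPM on D3 (2.29). FABP3 stood at 581 and 553 CPM on D0 and 122 and 67.5 CPM on D3 (-2.63). Of 34 lysosome and autophagy genes 8 were lower and 1 was higher (ATP6V0B, 1.38), with a median of -0.57. Among those lower was NPC2, which carries cholesterol inside lysosomes, at 355 and 346 CPM on D0 and 146 and 128 CPM on D3 (-1.39). CTSK, a collagen-cutting cathepsin, stood at 348 and 354 CPM on D0 and 141 and 116 CPM on D3 (-1.49). Of 28 antioxidant genes 4 were lower, 14.3% and so near the share over all genes tested, and 2 higher. Metallothioneins, which bind zinc and copper, differed between the D3 pools: MT2A stood at 1242 and 1253 CPM on D0 and 753 and 1505 CPM on D3. MT1E stood at 207 and 208 CPM on D0 and 103 and 206 CPM on D3, with D0 at or near the level of D3 B. MT1G, at 0.864 and 0.836 CPM on D0 and 4.2 and 16.3 CPM on D3 (the call was lost without D0 A or D0 B), and MT1H, at 0.036 and 0.0136 CPM on D0 and 0.554 and 2.97 CPM on D3, were the 2 of 12 called higher, and these near-identical genes can share reads. When each pool was left out, 3, 3, 7 and 4 cholesterol genes, 4, 3, 5 and 7 lysosome genes and 0, 2, 2 and 3 antioxidant genes were lower, and in cells without cycle UMIs 2, 1 and 0.

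Immediate early genes, which serum and stress switch on within minutes, had the lowest median of the 51 lists in the plot of calls by list. Of 26 tested members 15 were lower on D3 and 1 was higher, with a median of -1.50. FOS stood at 438 and 468 CPM on D0 and 75.3 and 71.2 CPM on D3 (-2.66 ± 0.21, SE; edgeR adjusted p = 3.9e-06). JUN stood at 441 and 424 CPM on D0 and 139 and 171 CPM on D3 (-1.51). NR4A2, a nuclear receptor, stood at 12.4 and 16.3 CPM on D0 and 2.02 and 2.14 CPM on D3 (-2.81). KLF2, a factor of quiescence, stood at 33.1 and 36 CPM on D0 and 5.24 and 4.25 CPM on D3 (-2.90). The D3 pools of these 4 genes lay together and far under those of D0. EGR1 stood at 123 and 138 CPM on D0 and 83.8 and 59.4 CPM on D3 and did not pass (adjusted p = 0.044, edgeR). The member higher on D3 was FOSL1, a Fos family protein of sustained ERK signalling, at 8.7 and 8.99 CPM on D0 and 43.5 and 26.8 CPM on D3 (1.94, lost without D0 A, D0 B or D3 A). Genes that ERK signalling induces, many of them its own inhibitors, included more rises: 6 of 16 were higher and 1 lower, among them ETV4 at 4.06 and 4.88 CPM on D0 and 50.1 and 20.4 CPM on D3 (2.92). DUSP6, the ERK phosphatase, stood at 40.1 and 41.1 CPM on D0 and 87.5 and 92.6 CPM on D3 (1.12). SPRY1 stood at 8.22 and 7.71 CPM on D0 and 21.3 and 55.3 CPM on D3 (2.26, lost without D0 A, D0 B or D3 B). CCND1, the cyclin that ERK induces, stood at 524 and 481 CPM on D0 and 419.9 and 748 CPM on D3 and was not called. Without each pool in turn, 12, 13, 15 and 14 immediate early genes were lower and 2, 2, 4 and 3 ERK output genes higher, and in cells without cycle UMIs 9 and 4.

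DUSP1, a phosphatase of p38 and JNK that serum, stress and glucocorticoids all induce, fell by 3.58 on the log2 scale. Its promoter window is shown for the cyclic AMP response element TGACGTCA, in capitals, a site of CREB and ATF proteins. Of the windows of all genes tested 3.34% held this element, and of 20 windows of immediate early genes 10%. The DUSP1 window also holds an E-box, CACGTG, left in lower case.
DUSP1 (chr5:172771146-172771445, minus strand): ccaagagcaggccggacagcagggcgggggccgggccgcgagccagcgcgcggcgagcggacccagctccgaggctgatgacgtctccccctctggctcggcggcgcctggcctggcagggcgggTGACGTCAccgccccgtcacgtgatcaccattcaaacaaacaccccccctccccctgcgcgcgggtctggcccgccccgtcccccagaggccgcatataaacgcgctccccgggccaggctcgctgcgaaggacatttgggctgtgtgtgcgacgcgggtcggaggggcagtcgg
In the list of the glucocorticoid response 8 of 12 genes were lower and 0 higher, with a median of -1.23. CEBPD stood at 79.6 and 78 CPM on D0 and 16.1 and 12.9 CPM on D3 (-2.48 ± 0.28, SE; edgeR adjusted p = 4.1e-05). TSC22D3, the leucine zipper protein GILZ, stood at 18.2 and 18 CPM on D0 and 7.63 and 4.4 CPM on D3 (-1.64, lost without D0 A or D3 B). NR3C1, the glucocorticoid receptor itself, stood at 72.9 and 76.3 CPM on D0 and 32.5 and 44.6 CPM on D3 (-0.98, lost without D0 A, D0 B or D3 A). FKBP5, another target, stood at 2.89 and 2.83 CPM on D0 and 4.27 and 6.7 CPM on D3, higher in both D3 pools but not called (adjusted p = 0.024, edgeR). With each pool left out, 5, 5, 7 and 6 of these genes were lower, and 2 in cells without cycle UMIs.

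Of 39 tested interferon-stimulated genes 22 were lower and 1 was higher, with a median of -1.11. IFIT1, which binds foreign RNA, stood at 34.5 and 30.4 CPM on D0 and 7.91 and 4.82 CPM on D3 (-2.40 ± 0.35, SE; edgeR adjusted p = 0.00026). XAF1, a proapoptotic interferon target, stood at 17.5 and 18.2 CPM on D0 and 2.4 and 4.37 CPM on D3 (-2.41). MX1, an antiviral GTPase, stood at 8.79 and 7.49 CPM on D0 and 2.22 and 1.85 CPM on D3 (-2.04). STAT2, which carries the interferon signal, stood at 18.2 and 20.2 CPM on D0 and 6.65 and 6.42 CPM on D3 (-1.59). In each of them both D3 pools were far under both D0 pools. ISG15, a ubiquitin-like protein, fell less, from 237 and 234 CPM on D0 to 137 and 153 CPM on D3 (-0.73, lost without D0 A, D0 B or D3 A). Among RNA sensors, DDX58, which encodes RIG-I, was lower at 4.79 and 4.44 CPM on D0 and 1.91 and 2.04 CPM on D3 (-1.26, lost without D0 A, D0 B, D3 A or D3 B). DHX58 was lower too (lost without D3 B). TLR3, under the filter and not tested, stood at 0.486 and 0.387 CPM on D0 and 0.0213 and 0.0132 CPM on D3. IFIH1, which encodes MDA5, was the 1 member higher, at 4.78 and 4.55 CPM on D0 and 11 and 18.5 CPM on D3 (1.65, lost without D0 A, D0 B or D3 B). Without D0 A, D0 B, D3 A or D3 B, 15, 17, 17 and 21 members were lower, and 11 of 43 in cells without cycle UMIs.

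The interferon response element was searched as TTTC, any 2 bases and TTTC again, on both strands, overlapping matches included. It was in 64.5% of 31 windows of this list, against 2.74% over all genes tested and 3.57% of all windows of the table. The windows of IFIT1 and IFIT3, both on chromosome 10, are shown with the matches in capitals, because each carries a pair of matches.
IFIT1 (chr10:89392373-89392672, plus strand): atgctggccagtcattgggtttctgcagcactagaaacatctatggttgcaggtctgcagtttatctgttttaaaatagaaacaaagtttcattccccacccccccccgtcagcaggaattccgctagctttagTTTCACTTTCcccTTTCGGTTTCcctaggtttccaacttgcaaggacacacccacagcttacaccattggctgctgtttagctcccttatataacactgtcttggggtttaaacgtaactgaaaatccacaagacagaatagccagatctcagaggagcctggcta
IFIT3 (chr10:89327747-89328046, plus strand): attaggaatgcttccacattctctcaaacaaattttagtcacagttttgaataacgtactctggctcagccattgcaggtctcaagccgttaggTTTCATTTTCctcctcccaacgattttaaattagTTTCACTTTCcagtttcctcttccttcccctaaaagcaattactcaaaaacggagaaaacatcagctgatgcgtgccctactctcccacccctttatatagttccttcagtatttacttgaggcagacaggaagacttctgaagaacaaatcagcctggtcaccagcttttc
IFIT3 stood at 26.4 and 25.1 CPM on D0 and 6.19 and 5.62 CPM on D3 (-2.16), with the D3 pools again far under those of D0.

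Among chemokines the called changes were mostly rises. CXCL1, a neutrophil attractant, stood at 1.54 and 1.48 CPM on D0 and 65.6 and 45.5 CPM on D3 (5.16 ± 0.69, SE; edgeR adjusted p = 0.00013). CXCL8 stood at 0.132 and 0.204 CPM on D0 and 9.32 and 3.04 CPM on D3 (5.14, lost without D0 A or D0 B). CCL2, a monocyte attractant, stood at 10.9 and 11 CPM on D0 and 33.6 and 24.6 CPM on D3 (1.37). The D3 pools were above both D0 pools in all 3, by the most CPM in CXCL1, while the log2 fold changes of CXCL1 and CXCL8 were nearly equal. CXCL5 (3.20), CXCL6 (2.07, lost without D0 A, D0 B or D3 A), CXCL3 (2.07), CCL7 (1.66, lost without D0 A or D0 B) and the adhesion molecule ICAM1 (1.65, lost without D0 A, D0 B or D3 A) completed the 8 of 22 genes of the chemokine and NF-kB list that were higher, and CXCL12 was the 1 lower. IL6 stood at 0.918 and 0.87 CPM on D0 and 1.52 and 0.232 CPM on D3, with D0 between the D3 pools. A CXCL1 UMI was found in 0.537% and 0.604% of thinned D0 cells and in 9.68% and 12.1% of D3 cells, so most D3 cells had none at this depth (unthinned, 2.38% and 2.63% on D0 and 33.7% and 34.4% on D3). In antigen presentation 3 of 14 genes were lower, among them HLA-E at 141 and 139 CPM on D0 and 56.1 and 55.8 CPM on D3 (-1.36), and B2M, at 2244 and 2163 CPM on D0 and 1580.4 and 1185 CPM on D3, lay just above the threshold (adjusted p = 0.012, edgeR). When each pool was left out, 4, 4, 6 and 8 chemokine and NF-kB genes were higher and 2, 2, 2 and 2 antigen presentation genes lower, and in cells without cycle UMIs 7 and 0.

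In the TGF-beta and BMP list 10 of 32 genes were lower and 0 higher (median -0.73). ID1, a direct BMP target that holds back differentiation factors, stood at 64.3 and 78.7 CPM on D0 and 21.7 and 20.1 CPM on D3 (-1.81 ± 0.16, SE; edgeR adjusted p = 8.7e-06). ID2, of the same family, stood at 79.3 and 83.4 CPM on D0 and 11.6 and 9.78 CPM on D3 (-2.96). ID3 stood at 57.3 and 55.3 CPM on D0 and 41.4 and 25.4 CPM on D3 and was not called. GREM1, a secreted BMP antagonist, fell by 1.88 and the receptor gene TGFBR2 by 1.63 (lost without D0 B or D3 A) on the log2 scale. Among growth factors and their receptors 10 of 41 were lower (median -0.71), with PDGFRA, the receptor that marks fibroblasts, at 124 and 138 CPM on D0 and 33.7 and 48.4 CPM on D3 (-1.70). FGF7 stood at 19.7 and 19.7 CPM on D0 and 6.1 and 4.07 CPM on D3, a called fall. FGF1 stood at 22.2 and 22.2 CPM on D0 and 5.22 and 6.3 CPM on D3 (-1.97). The 3 members higher were HBEGF (1.90, lost without D0 A, D0 B or D3 B), FGFR3 (1.84, lost without D0 A, D0 B or D3 A) and MET, the receptor of hepatocyte growth factor, at 9.36 and 10.1 CPM on D0 and 15.8 and 25.1 CPM on D3 (1.05, lost without D0 A, D0 B or D3 B). HGF, its ligand, stood at 19.3 and 19.1 CPM on D0 and 15.9 and 21 CPM on D3, with D0 between the D3 pools.

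Among antagonists of WNT signals, DKK1 stood at 236 and 237 CPM on D0 and 40.8 and 27.1 CPM on D3 (-2.84 ± 0.39, SE; edgeR adjusted p = 0.00016). SFRP1 stood at 947 and 961 CPM on D0 and 164 and 361 CPM on D3 (-1.87). WNT5A, a ligand, stood at 52.7 and 62.7 CPM on D0 and 17.7 and 19.9 CPM on D3 (-1.65, lost without D0 B or D3 A). Both D3 pools were under D0 in each, and SFRP1 was lower in D3 A than in D3 B. In the whole WNT list 7 of 27 were lower and 4 higher (median -0.45), the latter including WNT11 (2.38, lost without D0 A, D0 B or D3 A) and the antagonist DKK2 (1.91, lost without D0 B). Targets of YAP and TEAD, which respond to tension, were lower in 9 of 22 cases and higher in 1 (FJX1, 1.12, lost without D0 A, D0 B or D3 A), with a median of -1.14. LATS2, the kinase that restrains YAP, stood at 10.1 and 11 CPM on D0 and 2.79 and 4.01 CPM on D3 (-1.66), below D0 in both D3 pools. CTGF, a classical target, stood at 47.2 and 46.7 CPM on D0 and 130.4 and 47.3 CPM on D3 and was not called, with D3 pools that differed by more than 2-fold. CYR61, another, stood at 347 and 345 CPM on D0 and 199.5 and 122 CPM on D3 and was not called either. Of 37 contractile genes 7 were lower and 0 higher (median -0.47). LMOD1, an actin nucleator of smooth muscle, stood at 30.0 and 26.9 CPM on D0 and 2.02 and 4.2 CPM on D3 (-3.20). MYLK, myosin light chain kinase, stood at 156 and 165 CPM on D0 and 23.3 and 40.9 CPM on D3 (-2.34). CNN1, calponin, stood at 12.7 and 14.6 CPM on D0 and 3.58 and 3.11 CPM on D3 (-2.07). ACTA2, the actin of myofibroblasts, stood at 105 and 106 CPM on D0 and 64.2 and 52.3 CPM on D3 and was not called. The CArG box, a site of serum response factor, was in 21.2% of 33 windows of this list against 1.11% over all genes tested. Without each pool in turn, 6, 5, 6 and 9 TGF-beta and BMP genes, 5, 5, 7 and 12 growth factor genes, 4, 3, 4 and 4 WNT genes, 5, 5, 5 and 8 YAP targets and 5, 5, 6 and 10 contractile genes were lower, and 0, 0, 2 and 1 growth factor and 2, 1, 3 and 4 WNT genes higher. In cells without cycle UMIs 5 TGF-beta and BMP genes (median -0.53), 4 growth factor genes (median -0.72), 2 WNT genes (median -0.23, with 3 higher), 3 YAP targets (median -0.77, with 1 higher) and 4 contractile genes (median -0.10) were lower.

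Of 43 tested transcription factors of fibroblasts and mesenchyme 16 were lower and 2 higher (SCX, 2.75, and MSX1, 1.08, lost without D0 A, D0 B, D3 A or D3 B), with a median of -0.88. NR2F2, an orphan receptor of mesenchyme, stood at 258 and 245 CPM on D0 and 40.4 and 58.9 CPM on D3 (-2.36 ± 0.29, SE; edgeR adjusted p = 7.4e-05). FOXF2 stood at 27.7 and 33.1 CPM on D0 and 8.55 and 6.01 CPM on D3 (-2.10). EBF1 stood at 9.33 and 9.48 CPM on D0 and 1.71 and 2.37 CPM on D3 (-2.22). TBX5, a forelimb and heart factor, stood at 39.4 and 41.4 CPM on D0 and 15 and 15.4 CPM on D3 (-1.44). Both D3 pools were clearly under those of D0. PRRX1, a mesenchymal homeobox factor, stood at 147 and 140.4 CPM on D0 and 57.5 and 129.9 CPM on D3. ZEB1, a repressor of epithelial genes, stood at 88.3 and 84.4 CPM on D0 and 23.4 and 56.3 CPM on D3. Both were uneven on D3, with D3 B nearer to D0, and neither was called. TWIST1 was lower at 56.7 and 64.4 CPM on D0 and 39.8 and 21.1 CPM on D3 (-1.04, lost without D0 A, D0 B or D3 B). Of 14 HOX genes, which record position along the body, 1 was higher (HOXD13, 1.89, lost without D0 A, D0 B or D3 A) and 1 lower (HOXA13, -1.90, lost without D0 A, D0 B, D3 A or D3 B). Without D0 A, D0 B, D3 A or D3 B, 8, 7, 10 and 17 of the fibroblast factors were lower, and 6 in cells without cycle UMIs.

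Of 25 tested surface and cytoplasmic genes of fibroblasts 14 were lower and 0 higher, with a median of -1.05, and their summed level was 79110.2 and 77245 CPM on D0 and 39933 and 41710.4 CPM on D3. S100A6 alone, a calcium-binding protein, stood at 22980.4 and 22211 CPM on D0 and 8797 and 11686 CPM on D3 (-1.17, lost without D0 A or D3 A). LGALS1, a secreted lectin, stood at 20688 and 19964 CPM on D0 and 9053 and 10929 CPM on D3 (-1.05, lost without D0 A, D0 B or D3 A). CAV1, the coat protein of caveolae, stood at 2341 and 2280.0 CPM on D0 and 636 and 912 CPM on D3 (-1.60 ± 0.23, SE; edgeR adjusted p = 0.0002). Without D0 A, D0 B, D3 A or D3 B, 4, 5, 5 and 7 members were lower, and 1 in cells without cycle UMIs (median -0.66).

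Matrix glycoproteins and elastic fibre genes were lower in 10 of 39 cases and higher in 2 (GPC4, 2.04, and SPP1, 1.61, lost without D0 A, D0 B, D3 A or D3 B), with a median of -0.72. MFAP5, a microfibril protein, stood at 92.3 and 88 CPM on D0 and 14.3 and 14.6 CPM on D3 (-2.68). THBS1, an activator of latent TGF-beta, stood at 188 and 205 CPM on D0 and 36.7 and 42.6 CPM on D3 (-2.34 ± 0.27, SE; edgeR adjusted p = 4.2e-05). PRELP stood at 31.3 and 29.2 CPM on D0 and 4.62 and 4.26 CPM on D3 (-2.80). FN1, fibronectin, stood at 171 and 194 CPM on D0 and 79.6 and 91 CPM on D3 (-1.12, lost without D0 B or D3 A). Collagen chains gave a share near that over all genes tested: 3 of 23 were lower (COL8A2, -1.73 (lost without D0 B, D3 A or D3 B), COL12A1, -1.71, and COL5A1, -1.39, lost without D0 B or D3 A). COL1A1, the main chain of type I collagen, stood at 711 and 854 CPM on D0 and 509 and 514 CPM on D3 and was not called. None of the 25 genes that modify and process collagen was called by edgeR with the filter and thresholds used here, with 10 at an unadjusted p below 0.05. Without the filter on genes 1 was higher, with the pool letter as a replicate block 1 was lower, at an adjusted p under 0.05 1 was higher and 5 lower, and DESeq2 called 4 lower. Of 24 proteases and inhibitors 7 were lower and 0 higher (median -0.91). Those lower included TIMP2 at 170.5 and 188 CPM on D0 and 47.4 and 48.9 CPM on D3 (-1.93), TIMP3 (-1.26, lost without D0 A, D0 B or D3 A) and TIMP4 (-1.66), inhibitors of metalloproteinases, while the collagenase MMP1 stood at 1792 and 1644 CPM on D0 and 1813 and 1029 CPM on D3 and was not called. Among integrins and cadherins 5 of 20 were lower, including the mesenchymal CDH11 at 39.4 and 43 CPM on D0 and 15.9 and 16.7 CPM on D3 (-1.37, lost without D0 A, D0 B, D3 A or D3 B), and N-cadherin, CDH2, was higher at 15.8 and 15 CPM on D0 and 22.9 and 34.3 CPM on D3 (0.87, lost without D0 A, D0 B or D3 B). With each pool left out, 6, 6, 8 and 9 matrix glycoprotein genes, 3, 1, 1 and 4 collagens, 3, 2, 2 and 6 proteases and inhibitors and 2, 1, 2 and 7 integrins and cadherins were lower, and 0, 0, 3 and 0 collagens higher. In cells without cycle UMIs 3 matrix glycoprotein genes (median -0.44), 1 collagen (median -0.12, with 1 higher), 1 protease or inhibitor (median -0.28) and 1 integrin or cadherin (median -0.01) were lower.

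Sequences of the transfected mRNAs are not known here, so RNA of the cell and RNA from the transfection cannot be told apart. Of the 6 factor genes 3 were called higher, LIN28A, SOX2 and POU5F1, and 2 lower, KLF4 and NANOG. LIN28A stood at 0.012 and 0 CPM on D0 and 14.5 and 65.1 CPM on D3. SOX2 stood at 0.006 and 0.0204 CPM on D0 and 3.54 and 12.4 CPM on D3, with D3 B well above D3 A. POU5F1 stood at 0.126 and 0.156 CPM on D0 and 0.671 and 1.4 CPM on D3 (2.88). NANOG stood at 0.384 and 0.482 CPM on D0 and 0.0852 and 0.0464 CPM on D3 (-2.80), so these 2 genes had little RNA in any pool. KLF4 was lower at 49.1 and 58.2 CPM on D0 and 5.76 and 2.55 CPM on D3 (-3.75 ± 0.63, SE; edgeR adjusted p = 0.00062), and MYC stood at 18.4 and 19 CPM on D0 and 19.5 and 8.57 CPM on D3 with D0 between the D3 pools. AES, a Groucho family corepressor gene, stood at 142 and 159.7 CPM on D0 and 11558 and 7779 CPM on D3, far higher in both D3 pools. Whether these AES UMIs came from the gene of the cell or from transfected RNA cannot be told either, and was not tested. Among 29 pluripotency genes that were not transfected 7 were higher and 0 lower, with 19 log2 fold changes positive and 5 negative. The list summed to 18.6 and 18.6 CPM on D0, against a mean of 4528 CPM on D15. The filter took in cells of all 8 days, so genes nearly absent on D0 were tested and could hardly be called lower. L1TD1, an RNA-binding protein of stem cells, stood at 2.15 and 1.83 CPM on D0 and 28.9 and 58 CPM on D3 (4.43 ± 0.40, SE; edgeR adjusted p = 1e-05). CD24 stood at 0.312 and 0.401 CPM on D0 and 12.4 and 8.46 CPM on D3 (4.83). USP44, a deubiquitinase of stem cells, stood at 2.05 and 2.24 CPM on D0 and 12.6 and 24.3 CPM on D3 (3.09). DPPA4, a chromatin protein of stem cells, stood at 0.012 and 0.00679 CPM on D0 and 0.575 and 0.45 CPM on D3. All 4 were above D0 in both D3 pools, DPPA4 at a level under 1 CPM. L1TD1 UMIs were in 1.09% and 0.82% of thinned D0 cells and in 11.2% and 18.1% of D3 cells (unthinned, 4.98% and 5.01% on D0 and 40.7% and 49.5% on D3). When each pool was left out, 4, 4, 6 and 6 pluripotency genes were higher, and 2 of 19 tested in cells without cycle UMIs.

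Of 33 epithelial genes 3 were higher and 6 lower (median -0.48). KRT18, a keratin of simple epithelia, stood at 60.6 and 58.2 CPM on D0 and 268 and 201 CPM on D3 (1.94 ± 0.30, SE; edgeR adjusted p = 0.00036), against the fall of KRT19. CDH1 was at or near 0 in all pools, and EPCAM, at 1.51 and 1.71 CPM on D0 and 1.6 and 0.907 CPM on D3, was not called. Among imprinted and other long noncoding RNAs 5 of 25 were lower and 1 higher. MALAT1, a nuclear RNA, stood at 38705 and 36500.3 CPM on D0 and 8179.8 and 14448 CPM on D3 (-1.75 ± 0.27, SE; edgeR adjusted p = 0.00034). NEAT1, the scaffold of paraspeckles, stood at 1545 and 1645 CPM on D0 and 244 and 574 CPM on D3 (-1.97, lost without D0 A, D0 B or D3 A). MEG3, an imprinted RNA, stood at 373 and 383 CPM on D0 and 84.7 and 114 CPM on D3 (-1.95). D3 A was the lowest pool for all 3. Among nuclear receptors and retinoid genes 5 of 21 were lower, including CRABP2 at 1018 and 1043 CPM on D0 and 502 and 302 CPM on D3 (-1.41, lost without D0 A, D0 B or D3 B) and the clock receptor NR1D2 (-1.90), and 2 higher, ESRRA (1.80, lost without D0 A, D0 B or D3 A) and NR2F6 (1.36). In the death pathway 4 of 23 were higher, 17.4% against 13.1% over all genes tested, and 2 lower. BAK1 (2.11, lost without D0 A or D0 B) and BID (1.21) were among those higher. With each pool left out, 4, 4, 6 and 4 epithelial genes and 3, 2, 5 and 6 nuclear receptors and retinoid genes were lower, and 2, 2, 3 and 5 genes of the death pathway higher, and in cells without cycle UMIs 1, 1 and 4.

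Over the 6 later sampling days the lists took different courses, given here as sums of CPM averaged over the pools, with no test. Ribosome biogenesis went from 2921 on D0 to 7866 on D3 and stayed between 6920.3 and 8791 from D5 to D15. Immediate early genes went from 3601 to 1188 and later lay between 781 and 1256. Both groups were near their later levels at D3. Fibroblast transcription factors went from 2531 to 1231 and on to 211 on D15, and the surface list from 78178 to 40822 and 4933. YAP targets turned, from 1219 and 725 up to 2249.5 on D11 and back to 602 on D15. Interferon-stimulated genes, at 2255 and 1348, lay between 1119.7 and 1732 later, under D0 on every day.

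**Figure D4:**
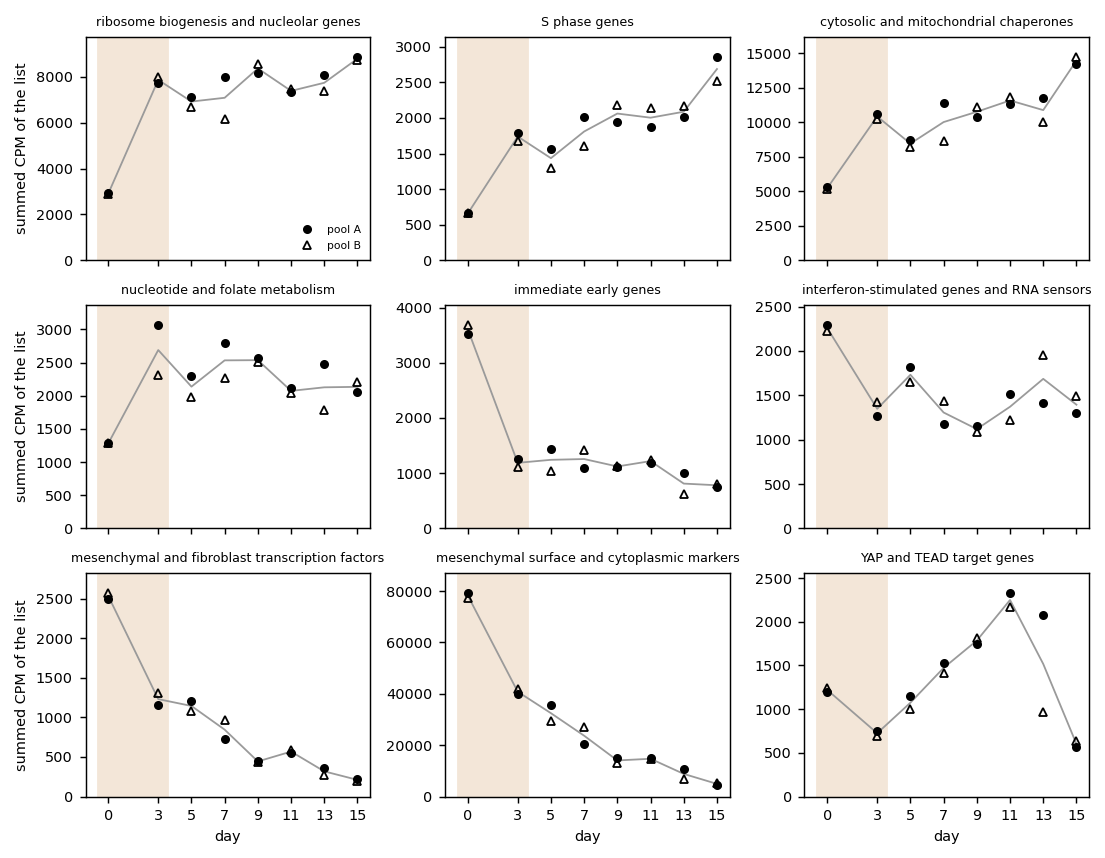
Summed CPM (y axis) of 9 gene lists in pool A and pool B on each of the 8 sampling days (x axis), with a line through the means of the pools and D0 to D3 shaded. Ribosome biogenesis reached 7866 CPM on D3 and stayed near it, whereas the fibroblast lists were far lower on D15 than on D3.

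Over all genes, promoters of those called higher and lower differed in some motifs. The E-box was in 14.5% of 1332 windows of genes higher on D3 and in 7.01% of 1226 windows of genes lower. Read the other way, 18.6% of 1038 genes with an E-box were higher and 8.29% lower, against 12.6% and 12.6% of 9066 without one. In windows of low, middle and high GC content, split into equal groups, 17.4%, 21.5% and 16.2% of genes with an E-box were higher, against 12%, 13.9% and 11.9% without. The ETS site CCGGAAG, searched on both strands, was in 25.7% of windows of genes higher, 8.89% of those lower and 39.7% of 68 windows of mitochondrial ribosomal proteins, against 19.8% over all genes tested and 10.3% of all windows. The ETS share did not follow the calls list by list: it was 34.3% in 67 windows of cytosolic ribosomal proteins, which gave few calls, but 10.0% in chaperones and 12.5% in nucleotide metabolism, which gave many rises. A match is a run of letters, not a site shown to be bound, and 19 motifs were searched in all.

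**Figure D5:**
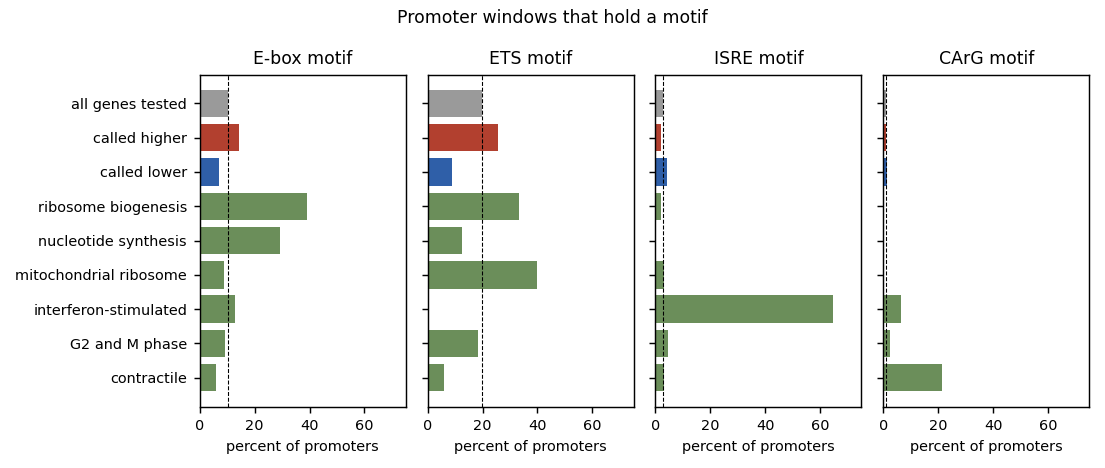
Percent of promoter windows (x axes) that hold an E-box, an ETS site, an interferon response element (ISRE) or a CArG box, for all genes tested (grey, with a dashed line), genes called higher (red) or lower (blue) on D3 and 6 gene lists (green). The E-box share is highest in ribosome biogenesis, at 39.2%, and the ISRE share in interferon-stimulated genes, at 64.5%.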

How the data were processed

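Single cells of BJ fibroblasts were captured with 10x Genomics 3′ chemistry. The authors aligned reads and counted UMIs with Cell Ranger 2.2, and the deposited matrices hold raw UMI counts per gene and cell barcode (33694 genes, 22 libraries). Per the study's methods, reads were aligned to hg38 with a GRCh38 annotation of coding, lincRNA and antisense genes. Cells under 1000 genes or over 10% mitochondrial UMIs were left out, no doublet caller was run, and counts were summed over the cells of each of 16 pools. Genes found in at least 5% of all kept cells were tested. edgeR 4.0.16 (TMM, quasi-likelihood test, 8 days in 1 fit, contrast D3 minus D0) gave log2 fold changes, standard errors and Benjamini-Hochberg adjusted p over all genes tested. DESeq2 1.42.0 was an alternative. Summed pools had 33181614 to 180056814 UMIs, and intervals for such sums would cover counting error only. Libraries shared at most 39 kept barcodes pairwise. The 2 pools of a day differed by more than the counting noise of UMIs (chi-square per gene 17.7 on D0 and 590.4 on D3). This value takes UMIs as independent and leaves out the spread between cells. It therefore cannot show a difference beyond the sampling of cells. Deviations of D0 and D3 pools by letter correlated at -0.06, and over all 28 pairs of days at -0.45 to 0.82, so the letters were not taken to pair the days. On data simulated from these pools, with the same spread of a gene on every day, edgeR called 11, 45 and 49 of 50 genes changed 2-, 4- and 8-fold among 12794 genes.

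Gene lists, motifs and the rule for named genes were chosen with earlier results of these data known, so no list was tested. Named were the 12 largest rises and falls among called genes at 50 CPM or more in both pools of the higher day (no mitochondrial or ribosomal protein genes, pools apart), in each list the 3 largest rises and falls among called members at 10 CPM or more, fixed key genes of each list, and AES with the 6 factor genes. Other list members are named to spell out small counts, families or marker lists, or as further examples, such as CHD7, CD24, EBF1, SLC3A2 and NR3C1. All of these were chosen after their values were seen. The alternatives were other tests, filters, thresholds and cells, and each pool left out. Coordinates of promoters are RefSeq GRCh38.p14. R 4.3.3, Python 3.11.15, pandas 2.3.3, scipy 1.17.1 and matplotlib 3.10.9 were used.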

Additional observations from a re-analysis of the deposited data

How the results depend on the processing

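edgeR called 3280 genes between D0 and D3, 1671 higher and 1609 lower. These counts stayed within 1.5 times under DESeq2 (4367), DESeq2 size factors in edgeR (3276), pool sums thinned to the smallest pool (2888), a stricter filter on cells (2780), AES and the factor genes left out (3271) and DESeq2 on the 4 pools (3227, added after seeing the data). With the pool letter as a replicate block, 3603 genes were called, 1773 higher and 1830 lower; the labels do not tie a letter to a shared culture or day. Without a filter on genes, 2553 of 29281 genes were higher. Calling all genes under an adjusted p of 0.05, whatever their fold, gave 5157 genes, 2682 of them lower. Cells without a UMI of 10 cycle genes after thinning (added after seeing the data) gave 676, 344 higher and 332 lower, from fewer cells and genes; the planned limit on cycling cells left 0 cells in D3 B and was not run. With only the 4 pools, edgeR called 0 genes, 0 higher and 0 lower, with 5431 at an unadjusted p below 0.05. With each pool left out, the counts ranged from 1444 (without D0 B) to 3028 (without D3 B), from 767 to 1572 higher and from 677 to 1456 lower, and the lone pool was then assumed to vary like the others. No gene was called in opposite directions. Every one of the 3280 genes that had a value kept its sign in each setting (3246 had one under the stricter filter and 3274 without AES and the factor genes), except in cells without cycle UMIs, where 3003 of 3006 did. In the simulated data, with 2 pools a day, changes near 2-fold were mostly under the reach of the test: of 50 such genes 11 were called. The simulation gave each gene the same spread on every day. It therefore cannot show the effect of the wide spread on D3. Of the 3280 calls in the data themselves, 2540 were of 2-fold or more.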
